A study of Homo sapiens and Mus musculus with 19 samples.

Results

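Gm26917, Gm42418, AY036118 and Lars2 are 4 of the 54446 genes counted in chromatin-associated RNA (caRNA) of mouse embryonic stem (mES) cells. They were chosen by their level, as genes that collect reads like ribosomal RNA (rRNA) and because Gm26917 took far more of the gene counts than any other gene. The share of gene counts in each library was the value behind that choice and is given here as a description. The study compared mES cells transfected with a control siRNA (siControl, 3 libraries) or with siRNA against Nsun2 (siNsun2, 3 libraries). NSUN2 is an enzyme that methylates cytosines in RNA. Another mES cell library, Pspc1 WT replicate 3, had no siRNA in its label and no partner libraries, so it is described only. The sources used here name no strain, passage or treatment time for these cells, and state that they were grown with LIF and inhibitors of GSK3 and MEK and passaged on gelatin to remove feeder cells. The study calls its replicates biological without saying whether each library came from a culture of its own, so p-values measure the spread between these libraries. The series also held 12 libraries of K562, a human leukaemia cell line, with TET2 WT or TET2 KO cells that carried shControl or shMBD6 (3 libraries each).

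In the nucleolus, RNA polymerase I transcribes tandem ribosomal DNA (rDNA) repeats into a long precursor. The precursor begins with an external transcribed spacer, and internal spacers lie between the small-subunit, the 5.8S and the large-subunit rRNA. The spacers are cut away during processing and are degraded, whereas the mature rRNAs are by far the most abundant RNAs of a cell and are depleted before sequencing. Most rDNA units are absent from genome assemblies, and single pieces of rDNA elsewhere carry gene names of their own.

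On GRCm38 (mm10) Gm26917 (ENSMUSG00000097971.3) is a lincRNA gene at chr17:39843013-39846341 on the plus strand, with a span of 3329 bases that its longest transcript fills without an intron. Gm42418 (ENSMUSG00000098178.1), also a lincRNA, follows on the same strand at chr17:39846958-39848788, after 616 bases that lie in no annotated gene of that strand. AY036118 (ENSMUSG00000105361.1) is a lincRNA on the minus strand, at chr17:39847113-39848035, inside Gm42418. The minus strand also carries CT010467.1, a gene of the rRNA class at chr17:39846353-39848827, which contains the whole of AY036118. Lars2 (ENSMUSG00000035202.8) lies apart, at chr9:123366927-123462666 on the plus strand, and encodes the mitochondrial leucyl-tRNA synthetase, which loads leucine onto its tRNA for mitochondrial translation.

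Member transcripts were aligned to the human rRNA precursor (RNA45SN1, 13351 bases), because no mouse precursor was at hand. The members covered different parts of it. Bases 14 to 164 of Gm26917 aligned at 76.7% identity to bases 458 to 611 of the precursor, within its 5′ external transcribed spacer, and no other stretch of the gene aligned. Gm42418 aligned over its bases 1 to 1248 at 97.3% to the 3′ part of the small-subunit rRNA, and over bases 1767 to 1830 at 87.9% to the first internal spacer. AY036118 was the exact reverse complement of bases 156 to 1078 of Gm42418, and matched the small-subunit rRNA in antisense at 99.35% over 923 bases. Lars2 held a stretch of 396 bases at 98.7% identity to the large-subunit rRNA, in sense, at chr9:123461792-123462187 in exon 21 of 21 of its full-length transcript, after the end of the coding sequence. The first 240 bases of Gm26917, the most counted gene, are shown with the stretch aligned to the human spacer in capitals (chr17:39843013-39843252, plus strand).
Gm26917: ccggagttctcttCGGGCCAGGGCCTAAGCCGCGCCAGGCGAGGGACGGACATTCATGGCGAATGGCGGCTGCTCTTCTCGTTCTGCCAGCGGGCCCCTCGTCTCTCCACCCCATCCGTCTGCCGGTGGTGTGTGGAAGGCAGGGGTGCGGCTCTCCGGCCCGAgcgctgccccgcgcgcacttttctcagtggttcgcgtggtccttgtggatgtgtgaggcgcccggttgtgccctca
The stretch of Gm42418 that crosses the end of the small-subunit rRNA is shown next, with the rRNA in capitals and the start of the spacer in lower case (chr17:39848082-39848321, plus strand). The last rRNA base was taken as the base opposite the first base of the longer CT010467.1 transcript, which aligned to the end of the human small-subunit rRNA.
Gm42418: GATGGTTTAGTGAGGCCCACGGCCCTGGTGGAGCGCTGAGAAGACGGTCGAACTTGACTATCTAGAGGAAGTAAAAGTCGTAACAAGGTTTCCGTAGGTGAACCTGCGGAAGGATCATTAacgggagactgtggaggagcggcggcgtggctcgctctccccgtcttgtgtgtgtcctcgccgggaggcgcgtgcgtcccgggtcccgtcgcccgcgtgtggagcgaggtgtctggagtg
The first 60 bases of AY036118 (chr17:39847976-39848035, minus strand) are shown with the bases of Gm42418 opposite to them, all in capitals because both lie wholly in the small-subunit rRNA and its complement.
AY036118: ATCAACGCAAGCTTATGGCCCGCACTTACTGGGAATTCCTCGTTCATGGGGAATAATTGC
Gm42418, opposite strand: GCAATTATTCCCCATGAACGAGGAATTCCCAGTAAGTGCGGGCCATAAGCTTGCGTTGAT
Gm26917 was also rich in G and C, at 69.1% of its bases (its longest transcript), which was above 99.9% of the 111422 annotated mouse transcripts of 500 bases or more, whose median was 49.0%. Gm42418 stood at 60.2%, AY036118 at 54.4% and the full-length Lars2 transcript at 51.2%.

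**Figure D1:**
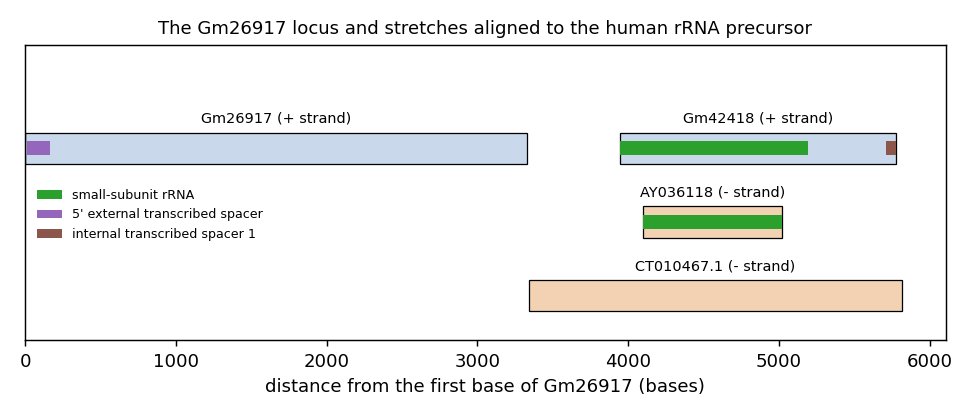
Genes of the Gm26917 locus along the x axis, in bases from the first base of Gm26917, with plus-strand genes in blue and minus-strand genes in orange. The narrow bars mark stretches of Gm26917, Gm42418 and AY036118 that aligned to the human rRNA precursor (the spliced alignment of CT010467.1 is not drawn), and AY036118 lies within both Gm42418 and CT010467.1.

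The siRNA libraries held 58078323 to 66832780 gene counts and the Pspc1 WT library 91990658. Nsun2, the targeted gene, stood at 125, 119 and 121 CPM (counts per 1000000 gene counts) in the siControl libraries and at 105, 114 and 109 CPM in the siNsun2 libraries, so that the groups did not overlap, and was called lower (log2 change -0.34 ± 0.03, SE, edgeR quasi-likelihood adjusted p = 2.78e-16, and -0.16 when libraries were scaled by total gene counts). In the same libraries, reads outside annotated genes rose from 19.9% ± 0.348 to 29.4% ± 0.464 of read records (SD, n = 3), and the part of this difference in the results below was not tested. Of 12 pluripotency markers, 11 had counts, with a summed level of 1911 to 1942 CPM in siControl and 1687 to 1707 CPM in siNsun2, and Sox2 was listed at 0. That 0 is not read as absence of Sox2 RNA, since a 0 can come from how genes inside other genes were counted. Tfcp2l1 alone went from 654 to 471 CPM. Of the 11 tested, 8 were called lower and 1 higher, where 24.3% of all genes tested were called lower and 25.8% higher. Scaled by total gene counts, 4 were called lower and 3 higher, where 2595 of all 27603 genes were called lower and 10232 higher. The 12 fibroblast markers that would mark feeder cells summed to 48.5 to 52.5 CPM in siControl and 45.2 to 47.0 CPM in siNsun2. Of the 10 tested, 3 were called lower and 1 higher, and under total gene counts 1 lower and 3 higher.

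Gm26917 was the most counted gene in all 7 mES cell libraries. It took 9.54%, 9.10% and 8.88% of gene counts in the siControl libraries and 8.57%, 8.61% and 8.47% in the siNsun2 libraries. The Pspc1 WT library stood apart at 1.58%. These shares rest on 5003167 to 6372734 counts per siRNA library and on 1454463 in the Pspc1 WT library, so that counting error is small beside the spread between libraries. No siNsun2 library reached the lowest of the siControl libraries. In such bulk libraries, fewer cells of a type and less RNA per cell cannot be told apart. The group means were 9.17% ± 0.333 and 8.55% ± 0.0756 (SD, n = 3), a difference of -0.62 percentage points. Shares chose the members and are given without a test. Among the 27603 genes tested, shares lay wholly below the siControl libraries in 11.4% and wholly above in 42.6%, so that the groups did not overlap in 54.0% of genes.

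Gm42418 was the second most counted gene in each of the 6 siRNA libraries and the eighth in the Pspc1 WT library. Its shares were 1.31%, 1.22% and 1.16% in siControl, 1.25%, 1.24% and 1.26% in siNsun2 and 0.210% in Pspc1 WT. The groups overlapped, with the siNsun2 libraries inside the siControl range, at means of 1.23% ± 0.0767 and 1.25% ± 0.00882. As a share of all read records, which include reads outside genes, the siNsun2 libraries were lower by 0.0998 percentage points on average, and those of Gm26917 by 1.23 percentage points.

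Lars2 took a far smaller share than both lincRNAs. It stood at 0.0170%, 0.0176% and 0.0148% of gene counts in siControl, 0.0175%, 0.0166% and 0.0161% in siNsun2 and 0.00597% in Pspc1 WT. The groups again overlapped. Reads were counted over the whole Lars2 span of 95740 bases, so that reads on its rRNA-like stretch could not be told apart from reads on the rest of the gene. Reads that aligned to more than 1 place were also kept out of gene counts (4.68% to 4.83% of read records in the mES cell libraries). Where the sequence of a member recurs in rDNA, its counts are therefore uncertain as to the copy they came from. How much of each member recurs in mouse rDNA was not examined.

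AY036118 had 0 counts in all 7 libraries. A count of 0 allows a share of up to 3.26e-06% to 5.17e-06% (3 counts of each library's total, counting error only), but its place inside CT010467.1 bears on this value directly. Of 6457 mouse genes that lay wholly inside another gene of the same strand, 99.8% were at 0 in all 7 libraries, against 7.38% of the 47952 others and 6.82% of the 6276 inside a gene of the opposite strand only. Sox2 was likewise at 0. The 0 of AY036118 therefore gives no level for this RNA, and no change or ratio was computed for it. CT010467.1 itself held 16496 to 24622 counts per siRNA library, or 0.0284% to 0.0368% of gene counts in siControl and 0.0283% to 0.0294% in siNsun2. Reads that overlapped more than 1 gene were set aside as ambiguous and made up 2.13% to 2.52% of read records in the siRNA libraries, and their genes cannot be read from the counts.

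**Figure D2:**
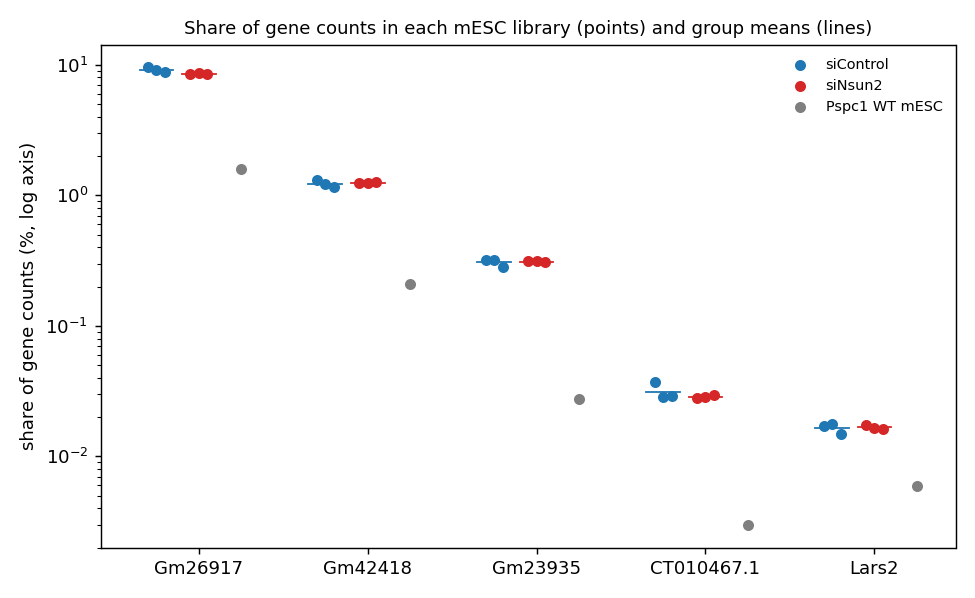
Share of gene counts (y axis, percent, log axis) of Gm26917, Gm42418, Gm23935, CT010467.1 and Lars2 in each mES cell library, with lines at the means of the siRNA groups (n = 3). The Pspc1 WT library lies below the 6 siRNA libraries for each of these genes, and AY036118, at 0 throughout, cannot be drawn on a log axis.

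Per length, the members kept the order of their shares. Gm26917 stood at 27549 ± 1000 CPM per kilobase of gene span in siControl, Gm42418 at 6721 ± 419 and Lars2 at 1.72 ± 0.157 (SD, n = 3). On the same scale CT010467.1, from the strand opposite to Gm42418, stood at 127 ± 19.2. The members together took 10.4% ± 0.410 of gene counts in siControl, 9.82% ± 0.0676 in siNsun2 and 1.80% in Pspc1 WT. Gm26917 made up most of this sum, in which the siRNA groups did not overlap either, as in 54.0% of all genes tested.

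The 10 most counted genes of the siRNA libraries were Gm26917, Gm42418, Malat1, mt-Rnr2, mt-Rnr1, Gm23935, Exoc4, Cdk8, Dst and Arl15. Gm26917 had 7.14 times the mean share of Gm42418 and 12.1 times that of Malat1, a nuclear long non-coding RNA. The mitochondrial rRNAs mt-Rnr2 and mt-Rnr1 took 0.584% and 0.415% of gene counts in siControl. Exoc4 (a subunit of the exocyst), Dst (a cytoskeletal linker) and Arl15 (a small GTPase) are long genes counted over spans of 724895, 400437 and 362957 bases, and took 0.252% to 0.292% in siControl.

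**Figure D3:**
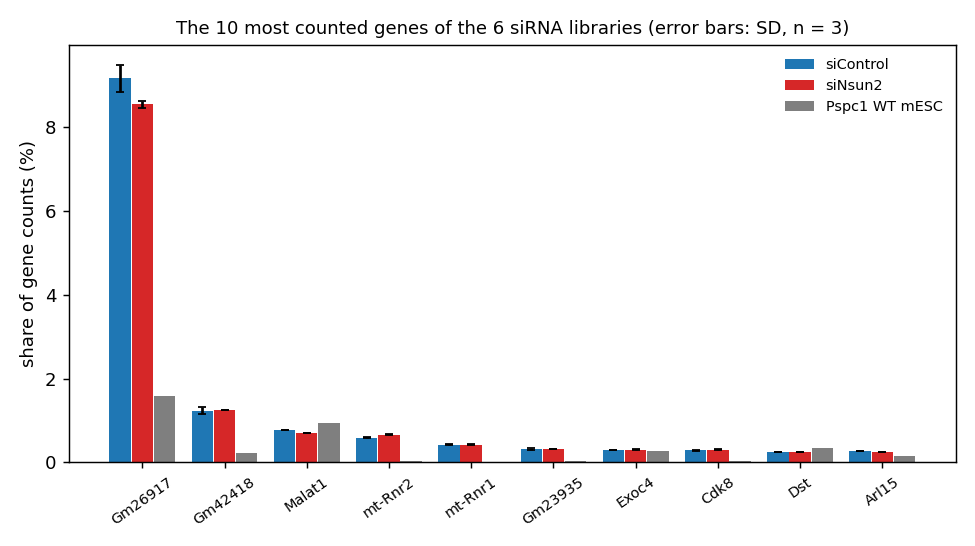
Mean share of gene counts (y axis, percent) of the 10 most counted genes of the 6 siRNA libraries, with SD (n = 3) for siControl and siNsun2 and the single value for Pspc1 WT. Gm26917 stands at 9.17% in siControl and 8.55% in siNsun2, and no other gene reaches 1.5%.

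Gm23935, the sixth most counted gene, resembled rRNA in sequence, in a stretch that no member covers. A search of all annotated mouse transcripts against the human precursor (at least 50 bases at 90% identity or more) found 11 genes, of which 3 were members. Gm26917 was not among them because its identity was too low. This search was made after the counts had been seen, and its genes get no test as a set. Gm23935 is annotated as a miRNA of 57 bases at chr16:11144125-11144181 on the plus strand, and its first 56 bases, in capitals, aligned at 91.1% to the large-subunit rRNA.
Gm23935: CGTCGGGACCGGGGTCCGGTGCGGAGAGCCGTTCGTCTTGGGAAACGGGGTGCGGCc
Gm23935 took 3202, 3192 and 2832 CPM in siControl, 3115, 3127 and 3072 CPM in siNsun2 and 273 CPM in Pspc1 WT. Per kilobase of span its siControl mean was 53954 CPM. With a span of 57 bases, reads that reach beyond the gene can raise this value, so it is not comparable with that of Gm26917. The siRNA groups overlapped, and the gene was not called (log2 change -0.17, edgeR quasi-likelihood adjusted p = 0.0626). It was called lower by edgeR with DESeq2 size factors (-0.23), with no filter (-0.18) and without siControl replicate 3 (-0.23), and stood at 0.01 under total gene counts. Mir6236, whose bases 1 to 82 aligned at 96.3% to the large-subunit rRNA, took 93.0, 94.3 and 48.9 CPM in siControl and 86.3 to 87.9 CPM in siNsun2. Its siControl replicate 3 lay far below the 5 other siRNA libraries. Gm15564 and Gm24245 were lower still, at 9.67 and 0.839 CPM in siControl, Mir6240 had at most 8 counts in a library, and AA474408 and Gm24270 were at 0. Of the 11 genes, 7 passed the filter on low counts and 0 were called by edgeR, where 50.2% of all genes tested were. DESeq2 called 4 of them lower (Gm42418, Lars2, CT010467.1 and Gm23935) and 0 higher, where 7629 of all 27603 genes were called lower and 5926 higher. Without adjustment edgeR gave p under 0.05 for 2 of them, Gm42418 and Gm23935.

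Whether siNsun2 changed the members was tested across all genes with edgeR on TMM-scaled counts, a scaling that centres the libraries on the bulk of their genes. Of 27603 genes, 25.8% were called higher and 24.3% lower, so that a call alone set no gene apart. Of the 4 members 3 were tested and 1, Gm26917, was called, with a log2 change of -0.28 ± 0.02 (SE, adjusted p = 8.64e-05). Gm42418 (log2 change -0.16 ± 0.05, edgeR adjusted p = 0.0627) and Lars2 (-0.15 ± 0.07, edgeR adjusted p = 0.139) were not called. Whether they were called turned on single libraries, as Gm42418 was called lower without siControl replicate 1 (-0.12) or siControl replicate 3 (-0.21), and Lars2 without siControl replicate 2 (-0.11), siControl replicate 3 (-0.23) or siNsun2 replicate 1 (-0.20).

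These values rested on the scaling. Under total gene counts, Gm26917 kept its direction at -0.10 but was no longer called (edgeR adjusted p = 0.0537), whereas Gm42418 stood at 0.02 and Lars2 at 0.03. The same scaling split the calls into 10232 higher and 2595 lower, compared with 7128 and 6716 under TMM, and moved the median log2 change of all genes from 0.14 to 0.32. With DESeq2 size factors in the edgeR fit, all 3 were called lower, at -0.34, -0.22 and -0.21. In that fit 7793 of all 27603 genes were called lower and 6351 higher. A scaling shifts all genes by nearly the same amount, so the distance of a member from the median of all genes is the same under each of them. Relative to the median of all genes, Gm26917 stood at -0.42, Gm42418 at -0.29 and Lars2 at -0.29 and 14.9%, 29.3% and 29.7% of the genes tested had lower log2 changes under TMM. The filter on low counts moved that median and with it the distance, which for Gm26917 was -0.25 at a minimum count of 50 and -0.59 with no filter.

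**Figure D4:**
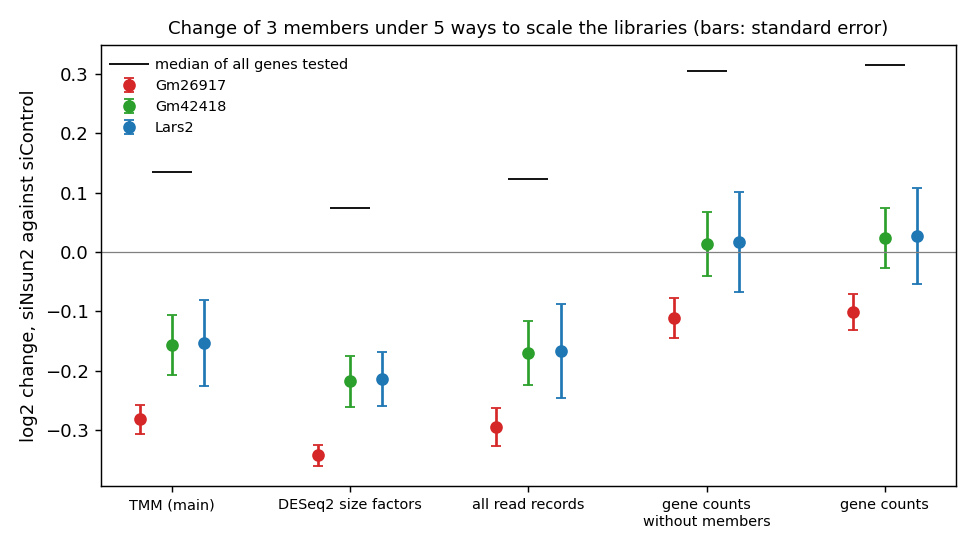
Log2 change of Gm26917, Gm42418 and Lars2 (siNsun2 against siControl, y axis, with SE) under 5 scalings of the libraries, beside the median of all genes tested. The members move up and down with that median, and Gm42418 and Lars2 lie above 0 only under the scalings by gene counts.

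A ratio between genes within a library does not depend on scaling. For each 100 counts of Gm26917, the siControl libraries held 13.8, 13.4 and 13.1 counts of Gm42418 and the siNsun2 libraries 14.6, 14.4 and 14.9. All siNsun2 values lay above all siControl values, by 0.13 on the log2 scale or 1.09-fold (exact permutation p = 0.10, the smallest possible, adjusted 0.20 over 2 ratios). Relative to Gm26917, 52.0% of all other genes tested were likewise higher in every siNsun2 library, so that Gm42418 did here what the larger part of genes did. The Pspc1 WT library held 13.3 counts of Gm42418 per 100 of Gm26917, within the siControl range, although its level of both genes was lower.

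For Lars2 the ratio was 0.178, 0.194 and 0.166 counts per 100 in siControl and 0.205, 0.193 and 0.191 in siNsun2. The groups overlapped (difference 0.13 on the log2 scale, exact permutation p = 0.30, adjusted 0.30), and the Pspc1 WT library stood higher, at 0.377. CT010467.1 went the other way in that library, with 0.189 counts per 100 of Gm26917 against 0.313 to 0.386 in siControl and 0.330 to 0.348 in siNsun2. Gm23935 stood at 3.36, 3.51 and 3.19 in siControl, at 3.63 to 3.64 in siNsun2 and at 1.73 in Pspc1 WT.

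**Figure D5:**
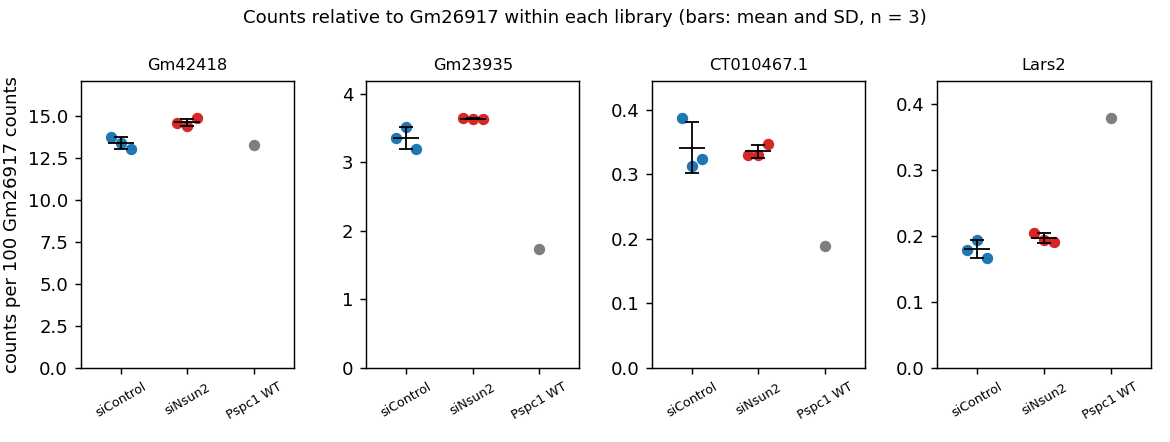
Counts of Gm42418, Gm23935, CT010467.1 and Lars2 per 100 counts of Gm26917 (y axes, each from 0) in each library, with mean and SD for the siRNA groups (n = 3). Gm42418 stands at 13.3 in Pspc1 WT, close to siControl, whereas Gm23935 and CT010467.1 stand lower there and Lars2 higher.

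The Pspc1 WT library held 0.172 times the siControl share of Gm26917, 0.171 times that of Gm42418 and 0.362 times that of Lars2. With a single library there was no test, and what belongs to the cells, the experiment or the library cannot be told apart. Of 9309 genes with a mean of at least 10 CPM in the siRNA libraries, 4.09% had a lower ratio than Gm26917, and the median ratio was 1.06. Gm15564 stood at 0.266 times its siControl share. Other rRNA or rRNA-like genes were lower in this library than the members, at 0.0889 times the siControl share for Gm23935, 0.0954 for CT010467.1, 0.0424 for mt-Rnr2 and 0.0168 for mt-Rnr1. All genes of the mitochondrial genome, with these rRNAs included, took 0.0969% of gene counts there, compared with 1.17% to 1.21% in siControl. Cdk8, a Mediator kinase gene, stood at 0.0919, and was not among the genes found by the search for rRNA-like transcripts. That search covered transcripts without their introns, whereas reads were counted over the whole Cdk8 span of 71645 bases. Whether an intron of Cdk8 holds an rRNA-like stretch was not examined.

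By pattern over the 7 mES cell libraries, the genes other than members most like Gm26917 were Gm28960, Rap1gap2, Hs6st3, Prkd1 and Ap3b2, with root mean square differences of mean-centred log2 CPM from 0.0310 to 0.0687, compared with a median of 0.918 over 9257 genes. Gm42418 stood at 0.0678 by the same measure. Rap1gap2 acts on the small GTPase Rap1, Hs6st3 sulfates heparan sulfate, Prkd1 is a protein kinase and Ap3b2 is part of an adaptor complex for vesicle traffic. As these 7 libraries chose the 5 genes, their values are a description, with 0.165 to 0.183 times the siControl share in Pspc1 WT and log2 changes from -0.37 to -0.25 in siNsun2.

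Within 200 kb of Gm26917, 7 other genes were annotated, and Gm42418 and CT010467.1 were the ones that passed the filter. CT010467.1 was not called (log2 change -0.31 ± 0.12, edgeR adjusted p = 0.106). It was called lower by DESeq2 and without siControl replicate 1, the library that held its highest share. Around Lars2, 7 of 11 neighbours passed. Sacm1l, a phosphoinositide phosphatase, was called lower (log2 change -0.37), the genes Slc6a20a, Slc6a20b, Cdcp1 and Scp2-ps2 were called higher, with log2 changes from 0.35 to 1.47, and Limd1 and Tmem158 were not called. Cdcp1 was not called without siControl replicate 3 (0.29) or siNsun2 replicate 3 (0.26). Limd1 (-0.14) was called lower in 6 alternatives, among them DESeq2 (-0.20), and stood at 0.04 under total gene counts. The 4 higher genes held 0.271 to 5.56 CPM in siControl.

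Genes that make and process rRNA were compared with the members as whole lists. Under TMM 24.3% of all genes tested were called lower and 25.8% higher, and under total gene counts 2595 and 10232 of the 27603. Of 15 genes of the RNA polymerase I machinery, 8 were called lower and 2 higher, with a median log2 change of -0.12 against 0.14 for all genes. The list median turned to 0.06 under total gene counts (3 higher, 1 lower). At a minimum count of 50 it was -0.06, against 0.03 for all genes. Taf1c, a subunit of the selectivity factor SL1 that binds the rDNA promoter, fell by 0.41 on the log2 scale (edgeR adjusted p = 0.000758), Twistnb, a polymerase subunit, by 0.36 and Polr1c, a subunit shared with RNA polymerase III, by 0.29. Taf1d, another SL1 subunit, rose by 0.12 and Rrn3, the initiation factor that recruits the polymerase, by 0.08 (edgeR adjusted p = 0.0489, lost in 5 of the 6 fits that left out a library). Taf1c and Polr1c were not called under total gene counts, and Taf1d was not called with DESeq2 size factors.

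Of 45 pre-rRNA processing factors, 32 were called lower and 0 higher by edgeR (24.3% and 25.8% of all genes), with a median of -0.17. This median stood at 0.01 under total gene counts (10 lower, 6 higher). At a minimum count of 50 it was -0.12, against 0.03 for all genes. The largest falls were those of Nop14, a factor of small-subunit assembly (-0.46), Las1l, a component of the complex that cuts the second internal spacer (-0.40), and Npm1, the nucleolar protein nucleophosmin (-0.40). Of the 16 other mitochondrial aminoacyl-tRNA synthetases, to which Lars2 belongs by function, 11 were called lower and 0 higher by edgeR (24.3% and 25.8% of all genes), with a median of -0.21 (-0.03 under total gene counts, 2 lower and 1 higher). Hars2, Aars2 and Nars2 fell the most, by 0.35, 0.27 and 0.26 on the log2 scale, and Hars2 and Aars2 were not called under total gene counts. In Pspc1 WT these 16 genes stood at 0.772 to 2.03 times their siControl level, so that none was as low there as Lars2, at 0.362.

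The annotation held 356 genes of the rRNA classes, of which 175 had a count and 12 passed the filter. Their median log2 change was -0.24. Of the 12, 2 were called, both lower, where 24.3% of all genes tested were called lower and 25.8% higher. These were mt-Rnr1 (-0.16, edgeR adjusted p = 1.13e-13) and the 5S gene n-R5s194 (-0.35, edgeR adjusted p = 0.000192). Under total gene counts mt-Rnr1 stood at 0.02 and n-R5s194 was not called. With no filter on low counts the median over 174 of these genes was 0.09. The other mitochondrial rRNA, mt-Rnr2, was not called (-0.02). Together these 356 genes summed to 10166 to 10432 CPM in siControl, 10910 to 11204 CPM in siNsun2 and 347 CPM in Pspc1 WT. Nearly all of this sum was mt-Rnr2 (5840 CPM in siControl and 6550 in siNsun2) and mt-Rnr1 (4147 and 4217 CPM), whereas CT010467.1 stood at 314 and 287 CPM.

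In the K562 libraries no gene reached the share that Gm26917 took in the siRNA libraries. The 20 human genes with a stretch of at least 50 bases like the precursor took 0.00168% to 0.00263% of gene counts together. Most of these counts were those of MIR663AHG, with 16493 over the 12 libraries, and the next gene held 482. The aligned stretch of MIR663AHG is 206 bases, and reads on it could not be told apart from reads on the rest of that gene. The most counted gene, MALAT1, took 1.73% on average. Most of the 20 genes had no counts in any K562 library. Reads with several alignments stayed out of gene counts. They made up 10.1% to 11.2% of read records in K562 and 4.68% to 4.83% in mES cell libraries. The identity required by the search would also have left out Gm26917. The low share therefore does not show that K562 cells lack rRNA-like reads. LARS2, the human counterpart of Lars2, took 0.0158% to 0.0208% across the 12 libraries.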

How the data were processed

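RNA bound to chromatin was depleted of rRNA with RiboMinus and made into stranded libraries. Per the labels, the authors trimmed reads with Trimmomatic 0.39, aligned them with HISAT2 2.2.1 to mm10 or hg38 and counted them with HTSeq 0.12.4, and the deposited values are raw read counts per gene, 1 table per library, with the GENCODE annotation. Rows of reads outside genes, ambiguous or aligned more than once named no gene and stayed out of totals and tests. In the siRNA libraries the first kind made up 19.9% (siControl) and 29.4% (siNsun2) of read records, and ambiguous reads 2.46% and 2.16%. Genes inside other genes of the same strand were nearly all at 0, whereas those on the opposite strand were not, so reads were counted by strand and over whole gene spans. No spike-in rows were found, so the spike-in scaling of the study's methods was not used here.

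Shares are percentages of gene counts per library. siNsun2 and siControl (3 libraries each) were compared in edgeR 4.0.16 (R 4.3.3), with the quasi-likelihood test on TMM-scaled counts, a minimum count of 10 (filterByExpr) and Benjamini-Hochberg adjustment over 27603 genes, called at 0.05. Ratios of counts were compared by two-sided exact permutation tests, which cannot go below p = 0.10 with 3 against 3 libraries. The same tests, planned for shares, are not reported because shares chose the members. The fit was tested on simulated data. Alternatives were other scalings, filters, DESeq2 1.42.0, a replicate block and leaving out each library. Members and gene lists were chosen with earlier results of these data known. Genes named were the 10 with the largest shares, the 5 most like Gm26917, tested neighbours within 200 kb and, per list, up to 3 called genes in each direction. Genes like rRNA were added after their counts were seen. Sequences came from GENCODE transcripts (GRCm38), aligned with blastn 2.17.0 to the human RefSeq precursor. Shares rest on 58078323 to 91990658 gene counts per library, and limits for a count of 0 cover counting error only.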

Additional observations from a re-analysis of the deposited data

Results flagged for a closer look

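Reads outside annotated genes enter none of the comparisons between genes, yet they differed between the groups. They made up 29.4% ± 0.464 of read records in the siNsun2 libraries, compared with 19.9% ± 0.348 in the siControl libraries (SD, n = 3), and 10.7% in the Pspc1 WT library. The 3 siNsun2 libraries all lay above the 3 siControl libraries. How much of these reads came from rDNA was not tested, since the tables give no positions for them.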

How the results depend on the processing

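The call of Gm26917 as lower was lost under total gene counts (-0.10) and total gene counts without the members (-0.11), and kept in the other 12 alternatives. Under these 2 scalings Gm42418 stood at 0.023 and 0.013, Lars2 at 0.026 and 0.017, lower calls fell from 6716 to 2595 and 2825, and list medians were 0.064 and 0.054 (RNA polymerase I machinery), 0.0077 and -0.0020 (pre-rRNA processing), -0.030 and -0.040 (mitochondrial synthetases) and -0.057 and -0.067 (annotated rRNA genes). They also turned the direction of Cdk8 (0.074 and 0.064), Exoc4 (0.049 and 0.039), Gm15564 (0.13 and 0.12), Gm23935 (0.014 and 0.0037), Limd1 (0.043 and 0.033), Mir6236 (0.15 and 0.14), mt-Rnr1 (0.024 and 0.015) and mt-Rnr2 (0.17 and 0.16). DESeq2 size factors and DESeq2 itself made Gm42418 (-0.22 in both) and Lars2 (-0.21 in both) called, with list medians of -0.18 (polymerase I) and -0.23 (processing) in both, and scaling by all read records gave -0.13 for polymerase I. With no filter Lars2 (-0.17) and Gm23935 (-0.18) were called, and the medians were -0.13 for polymerase I and 0.091 for annotated rRNA genes. At a minimum count of 50 the medians were -0.059 (polymerase I), -0.12 (processing) and -0.099 (rRNA genes), against 0.027 for all genes. There Gm15564 (0.0082), Mir6236 (0.024) and mt-Rnr2 (0.042) turned direction. Calls split into 51.5% higher under TMM, 79.8% and 77.9% under the gene count totals, 44.9% with DESeq2 size factors and 43.7% with DESeq2. As shares of all read records, Gm42418 and Lars2 differed by -0.0998 and -0.0013 percentage points. The causes of these shifts were not tested.

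Leaving out 1 library at a time gave log2 changes from -0.21 to -0.12 for Gm42418 and from -0.23 to -0.11 for Lars2, medians from -0.14 to -0.11 for polymerase I and from -0.39 to -0.19 for annotated rRNA genes, and share differences from -0.016 to 0.061 (Gm42418) and from -0.00054 to 0.00088 percentage points (Lars2). Gm15564 ranged from -0.17 to 0.091, Mir6236 from -0.29 to 0.11 and mt-Rnr2 from -0.031 to 0.0055. With 2 against 3 libraries a permutation test cannot go below 0.20. Same-numbered libraries of both groups did not deviate together (correlations of -0.026, 0.051 and -0.043 over 9297 genes), so the numbers give no pairing. With the replicate number as a block, Lars2 (-0.15) and Gm23935 (-0.16) were called and Mir6236 stood at 0.015, and the calls over all genes were 7016 higher and 6682 lower. For AY036118, at 0, no alternative gave a value.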
